A study of Populus tomentosa with 15 samples.

Results

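The response of *PtomtAPX*-antisense poplar cells to added ascorbate (AsA) was measured as the difference between the treated cells (*anti-3*-A) and the untreated cells of the same line (*anti-3*). The members were the 6 RNA-seq libraries of these groups out of 15, and the 23167 genes with an FPKM (reads scaled by gene length and library total) of 1 or more in at least 3 of these 6 libraries, out of 34743 features with a read in any library. All groups were *Populus tomentosa* suspension cells, grown as single cells and small clumps in shaken liquid culture in the dark and collected 5 days after subculturing. The *anti-3* line carries an antisense construct against *PtomtAPX*, the mitochondrial ascorbate peroxidase (APX), in a pBI121-based vector, and is a single line chosen from several. The *anti-3*-A cells are the same line after 3 h with 1 mM AsA. The other groups, used here for reference only, were wild type (WT) cells, the *PtomtAPX*-overexpressed line *OX*, and *OX* after 3 h with 10 mM H2O2 (*OX*-H), with 3 libraries in each group. No library of mock-treated *anti-3* cells or of AsA-treated WT cells was analysed here, so the effect of AsA and that of the handling over 3 h cannot be told apart.

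Ascorbate is the electron donor that APX uses to reduce H2O2 to water. The oxidized ascorbate is reduced again at the expense of glutathione, and the linked reactions are known as the ascorbate-glutathione cycle. In cells with little mitochondrial APX, H2O2 made by respiration is removed less well, and AsA can be added to the medium to supply more of the reductant. H2O2 is also a signal in plants, known to act on genes for glutathione transferases, chaperones, hormone responses and cell division.

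The 3 *anti-3* libraries held 17041314 to 20696382 reads on genes and the 3 *anti-3*-A libraries 16842815 to 17695808. These totals were worked back from the steps of 1 read between low FPKM values, and 445124 of 445124 values above 0 came out whole within 0.001 reads. Across genes, log2(FPKM + 1) correlated at 0.993 to 0.994 between libraries of *anti-3*, at 0.990 to 0.992 between those of *anti-3*-A, and at 0.855 to 0.870 between the groups. Replicates are separate libraries by their labels, and nothing states that they came from separate cultures, so the p-values measure the spread between these libraries. The identifiers of the table are not paired with *PtomtAPX*, and the level of the targeted gene was not analysed here. No list of defining markers of suspension cells could be matched to the identifiers.

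After AsA, 2080 of 23167 genes (8.98%) were DEGs, of which 675 (2.91%) were raised and 1405 (6.06%) lowered. A DEG had an adjusted p below 0.001 (limma, Benjamini-Hochberg over all genes tested) and an absolute log2 fold change above 1.5 on log2(FPKM + 1), a scale on which the fold of weakly expressed genes comes out too small. The 3 values of each group did not overlap for any of the 2080 DEGs, which was also the case for 79.5% of all genes tested. The median standard error (SE) of the log2 fold changes of the DEGs was 0.11. Falls were larger than rises: 293 lowered genes passed a log2 fold change of 3 in size, against 14 raised genes, and 49 passed 5, against 0. In the scatter of levels, the lowered DEGs reached down to the axis while the raised DEGs formed a band along the diagonal.

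Rises below the fold change threshold were common. An adjusted p below 0.05 was reached by 18142 genes (78.3%), of which 12470 were raised and 5672 lowered, and the median log2 fold change of all genes tested was 0.30. With library medians aligned this median was 0.12, and 445 raised and 1690 lowered genes were called, so that raised genes made up 20.8% of the DEGs in place of 32.5%. Reads are shared out within a library, and a fall of abundant transcripts and a general rise of the others cannot be told apart on these values. Fewer cells of a kind and less RNA per cell cannot be told apart either.

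**Figure D1:**
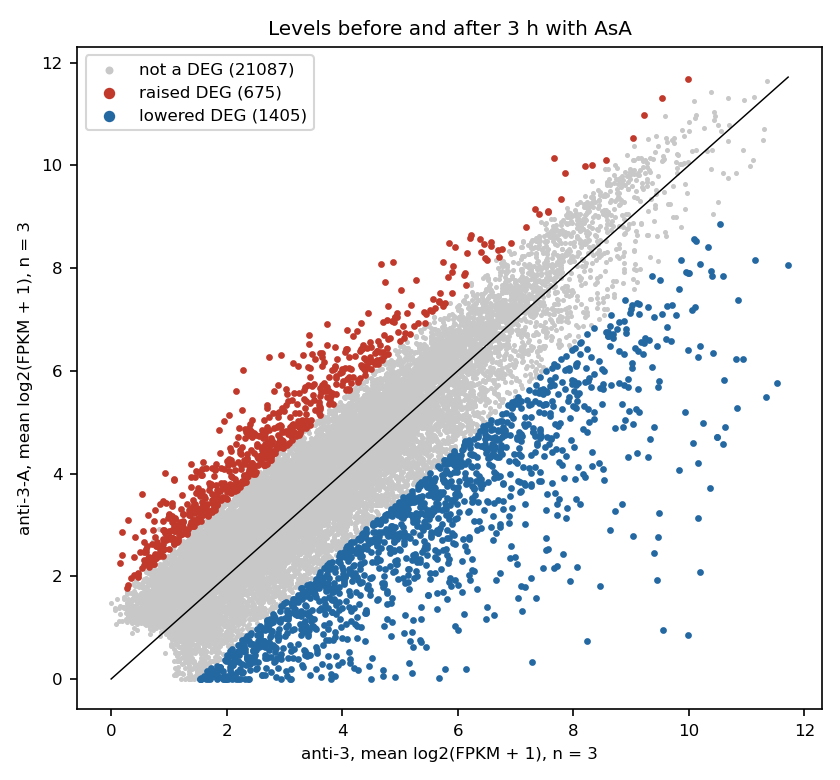
Mean log2(FPKM + 1) of each of the 23167 tested genes in *anti-3* (x axis) and *anti-3*-A (y axis), 3 libraries each, with the line of equal levels. The 675 raised DEGs lie in a band above the line, and the 1405 lowered DEGs spread below it, down to values near 0 in *anti-3*-A.

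The lowered genes were abundant in the untreated line. They made up 21.7%, 21.8% and 22.4% of the summed FPKM in the *anti-3* libraries and 3.21%, 2.97% and 3.07% in the *anti-3*-A libraries. In WT the same genes made up 3.00% to 3.22%, in *OX* 17.6% to 19.4% and in *OX*-H 3.49% to 3.62%. The raised genes took 1.54%, 1.51% and 1.47% before treatment (*anti-3*) and 5.63%, 5.55% and 5.76% in *anti-3*-A. They were at 4.82% to 5.04% in WT, 1.82% to 1.89% in *OX* and 5.67% to 5.86% in *OX*-H. For both sets the *anti-3*-A libraries lay nearer to WT than to *anti-3*. The genes were chosen on *anti-3* and *anti-3*-A, so the shares in those groups are a description.

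**Figure D2:**
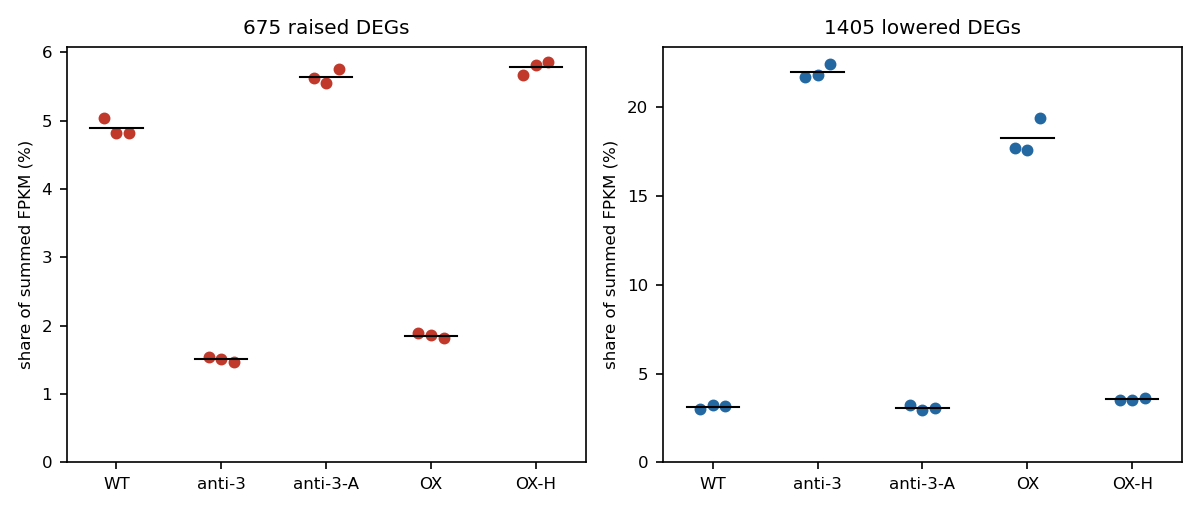
Share of the summed FPKM of each library (y axis, percent) taken by the 675 raised DEGs (left) and the 1405 lowered DEGs (right) of *anti-3*-A against *anti-3*, by group. Points are libraries and lines are means of 3, and the lowered genes take 21.7% to 22.4% in *anti-3* and 2.97% to 3.21% in *anti-3*-A.

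Among lowered genes, 363 had an FPKM of at least 100 in each *anti-3* library, and 40 had it in each *anti-3*-A library. For raised genes the numbers were 17 and 78. A fall from at least 10 FPKM in every *anti-3* library to below 1 in every *anti-3*-A library was found for 36 genes, and a rise of this kind for 0. Lowered DEGs were a larger share of the more abundant genes. They made up 3.47% of the 7377 genes with a mean FPKM below 5 over the 6 libraries, 4.51% of those from 5 to 20, 9.29% of those from 20 to 100 and 15.4% of the 1586 genes at or above 100. For raised DEGs these shares were 1.74%, 3.52%, 3.45% and 3.22%. The bins use the same 6 libraries as the calls, so a high level in *anti-3* itself places a lowered gene in a higher bin. Folds of weakly expressed genes also come out too small on this scale. The gradient is therefore partly built in and is a description only.

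The largest falls and rises were in genes for which neither the table nor the study names a function. POPTR_0012s02930 was at 1021, 1023 and 988 FPKM in *anti-3* and at 0.522, 1.65 and 0.442 in *anti-3*-A, where it rested on 46 reads. Its log2 fold change was -9.14 (SE 0.19, limma adjusted p = 1.7e-15), and the mean in WT was 1.81 FPKM. POPTR_1310s00210 went from 720.4, 785 and 736 FPKM to 1.49, 0.612 and 0.829, a log2 fold change of -8.59. Both were thus among the abundant transcripts of the untreated line and near the detection limit after 3 h with AsA. The largest rise was that of POPTR_0017s12850, from 4.38, 2.18 and 5.63 FPKM to 66.2, 63.7 and 60.6, with a log2 fold change of 3.73 (SE 0.20, limma adjusted p = 8.5e-11). It was at a mean of 19.1 FPKM in WT, so that *anti-3*-A stood above WT. POPTR_0001s05520 rose from 5.62, 5.88 and 5.61 FPKM to 74.6, 72.9 and 81.8, close to its WT mean of 69.6.

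Groups of genes were described with 31 lists of GO terms. Their members come from the study, which drew them from the DEGs of *anti-3* or of *OX* against WT, so a member taken from *anti-3* is not independent evidence of its direction here. In all, 382 of 485 listed genes passed the filter, and 45 were raised and 146 lowered DEGs. The lists hold 9.18% of all DEGs, and some are held here in part (glutathione transferases, UDP-glycosyltransferases and transporters driven by ATP). The direction of a member taken from *anti-3* is largely fixed by that choice, because the same *anti-3* libraries enter both comparisons. The 2.91% raised, the 6.06% lowered and the median of 0.30 among all genes are therefore no baseline for such members, and nothing is read from a list's count against them. The lists of thioredoxin-disulfide reductase activity, unfolded protein binding, heat, calcium-transporting ATPases, calmodulin binding, sulfate, malate and phosphate transport, trehalose, gibberellin and salicylic acid were taken from *anti-3* as a whole. Members said to be taken from *OX* alone are on the study's *OX* list and absent from the *anti-3* part of the same list. The *OX* and WT libraries are not in the AsA comparison, but that absence can depend on the *anti-3* libraries. Counts among these members are therefore not a fully independent check.

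**Figure D3:**
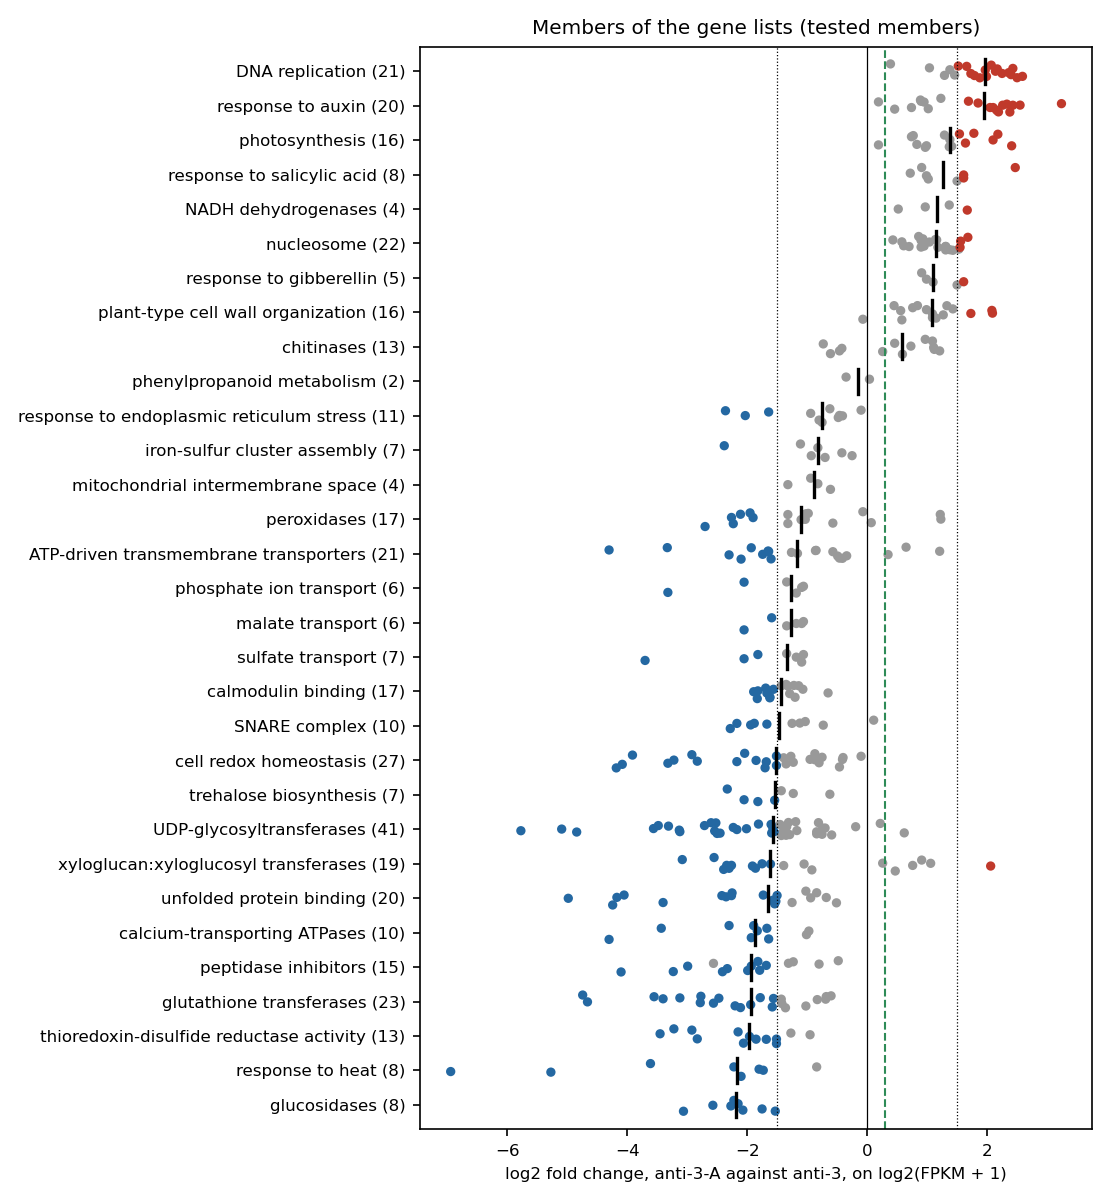
Log2 fold change of *anti-3*-A against *anti-3* (x axis) for each tested member of 31 gene lists (rows, number tested in brackets). Red and blue points are raised and lowered DEGs, grey points are other members, bars are medians, dotted lines mark 1.5 in size, and the dashed line marks 0.30, the median of all genes tested. Medians run from -2.18 for glucosidases to 1.97 for DNA replication.

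Glutathione transferases, enzymes that join glutathione to reactive or foreign compounds, were lowered as a block. Of 23 tested, 15 were lowered DEGs and 0 raised, the median log2 fold change was -1.94, and 23 of 23 lay below 0. All but 1 of the 23 were taken from the *anti-3* DEGs, so this direction is not independent evidence. Their summed level was 6155 to 6468 FPKM in *anti-3* and 1382 to 1433 in *anti-3*-A. POPTR_0001s42820 was at 233, 239 and 226 FPKM in *anti-3* and at 8.31, 8.46 and 6.66 in *anti-3*-A, a 29.8-fold difference of the means (log2 fold change -4.74 with an SE of 0.11, limma adjusted p = 4.5e-15). POPTR_0256s00210 was at 365, 359 and 382 FPKM and then at 13.1, 15.5 and 12.5. In WT these genes were at means of 9.82 and 8.39 FPKM. POPTR_0256s00210 was still above WT in *anti-3*-A (log2 fold change 0.65, limma adjusted p = 2.0e-04), and POPTR_0001s42820 had a log2 fold change of -0.30 against WT (limma adjusted p = 0.038).

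Genes of cell redox homeostasis, which keep protein thiols reduced, followed the same direction. There were 14 lowered DEGs and 0 raised among 27 tested, with a median log2 fold change of -1.51. All 14 came from the part of the list drawn from *anti-3*, and the 6 members taken from *OX* alone had 0 DEGs and a median of -0.43. Those 6 were by choice not in the *anti-3* part, so their small changes are not independent evidence either. POPTR_0004s01220 was at 529, 537 and 509 FPKM in *anti-3* and at 32.1, 28.3 and 29.9 in *anti-3*-A (log2 fold change -4.08 with an SE of 0.08). POPTR_0011s05780 was at 62.6, 64.6 and 63.2 FPKM and then at 3.08, 1.73 and 3.02. Thioredoxin-disulfide reductases recycle thioredoxin, and 11 of the 13 genes annotated with this activity were lowered DEGs, with 0 raised and a median of -1.96, in a list taken from the *anti-3* DEGs. Of these 13 genes, 9 are also on the redox homeostasis list. POPTR_0008s05530 went from 17.1, 18.4 and 18.8 FPKM to 0.808, 0.860 and 0.577.

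Peroxidases of the list, which oxidize their substrates with H2O2, were mixed in size and direction. Of 17 tested, 6 were lowered DEGs and 0 raised, with a median of -1.10, and the 6 DEGs were among the 16 members drawn from *OX* alone. POPTR_0001s09270 was the one with the largest fall, from 886, 848 and 906 FPKM to 154, 122 and 131, still above the WT mean of 86.0. POPTR_1332s00200 went from 12.8, 14.3 and 16.4 FPKM to 1.85, 2.18 and 2.67, below the WT mean of 5.24. Of the 17, 3 lay above 0 and 14 below. A limma adjusted p below 0.05 was reached by 2 in the raised direction and 13 in the lowered. The highest fold change on the list was 1.23 on the log2 scale, which did not reach the threshold.

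Genes for protein folding fell together with the heat response. Proteins annotated with unfolded protein binding act as chaperones, and 14 of 20 were lowered DEGs with 0 raised and a median of -1.65. This list and that for heat were chosen on the *anti-3* libraries and are not independent evidence of direction. POPTR_0004s07190 was at 623, 648 and 622 FPKM in *anti-3* and at 20.5, 17.9 and 18.6 in *anti-3*-A, 33.2-fold lower. POPTR_0011s05650 went from 211, 224 and 206 FPKM to 10.1, 12.5 and 8.88. Of 8 genes of the response to heat, 7 were lowered DEGs, and the summed level of the 8 went from 3706 to 3767 FPKM in the *anti-3* libraries to 473 to 492 in *anti-3*-A. POPTR_0013s09600 showed the largest fall of any listed gene, from 681, 651 and 673 FPKM to 4.11, 3.91 and 5.52 (log2 fold change -6.94 with an SE of 0.17, limma adjusted p = 1.1e-14). POPTR_0001s35990 went from 1176, 1221 and 1236 FPKM to 34.7, 31.4 and 26.0. The study states a single growth temperature for the suspension cells. Whether handling over the 3 h of treatment had a part in the heat list was not tested. For the response to endoplasmic reticulum stress, 3 of 11 genes were lowered DEGs and the median was -0.75. POPTR_0005s27930 and POPTR_0005s12910 had log2 fold changes of -2.36 and -2.03.

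Calcium-transporting ATPases, pumps that clear calcium from the cytosol, were lowered in 8 of 10 tested, with 0 raised and a median of -1.86, again in members chosen on the *anti-3* libraries. POPTR_0010s09130 was at 35.7, 35.5 and 36.4 FPKM in *anti-3* and at 0.990, 0.934 and 0.716 in *anti-3*-A, which was 40.8-fold lower. POPTR_0008s15890 went from 94.5, 94.0 and 102 FPKM to 9.74, 7.15 and 7.52. Calmodulin binding proteins, 3 of which are these ATPases and which were chosen in the same way, had 8 lowered DEGs among 17, with a median of -1.43. POPTR_0001s05790 and POPTR_0001s05800 are both on the 2 lists and had log2 fold changes of -1.89 and -1.83, the latter from 3 reads in *anti-3*-A. In the SNARE complex, the machinery of membrane fusion, 5 of 10 genes were lowered DEGs with a median of -1.46. POPTR_0016s06910 went from 51.4, 56.7 and 57.9 FPKM to 11.4, 10.0 and 10.3, and POPTR_0002s24200 had a log2 fold change of -2.17.

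Transporters were lowered or below the threshold. Among ATP-driven transporters, 9 of 21 were lowered DEGs with a median of -1.16, and POPTR_0003s18140 went from 61.8, 61.5 and 60.7 FPKM to 4.72, 6.02 and 4.92. Its WT mean of 1.36 FPKM was lower still (log2 fold change of *anti-3*-A against WT 1.39, limma adjusted p = 1.9e-08). The lists of sulfate, malate and phosphate transport share 5 genes and had 3 of 7, 2 of 6 and 2 of 6 lowered DEGs, in members chosen on the *anti-3* libraries. POPTR_0002s09310, for sulfate, went from 26.9, 21.6 and 28.6 FPKM to 1.01, 1.08 and 1.02, and POPTR_0015s11570, for phosphate, from 25.7, 28.4 and 25.5 to 1.66, 1.86 and 1.74. POPTR_0007s03520, on all 3 lists, and POPTR_0009s02310, for malate, had log2 fold changes of -2.05 and -1.59, and the latter was no DEG without *anti-3*-A replicate 2 (-1.44), which left 1 call on the malate list.

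Enzymes that act on sugars and cell walls went both ways. UDP-glycosyltransferases attach sugars to small molecules such as hormones and phenolics. Of 62 listed, 41 passed the filter, and 22 of these were lowered DEGs with 0 raised and a median of -1.57. The 22 of these 41 genes that the study drew from *OX* alone held 12 lowered DEGs. POPTR_0014s11210 was at 155, 170.3 and 162 FPKM in *anti-3* and at 1.48, 2.55 and 2.05 in *anti-3*-A, 80.2-fold lower. POPTR_0014s09180 was at 34.3, 38.1 and 35.3 FPKM and then at 0.128, 0.0627 and 0.0608, from 8 reads in *anti-3*-A. Of 13 listed glucosidases, 8 passed the filter, and 8 were lowered DEGs with a median of -2.18. Only 3 were called among genes with an FPKM of at least 5, since most are weakly expressed. POPTR_0001s23050 to POPTR_0001s23080 and POPTR_0004s18990 were below 1 FPKM in every *anti-3*-A library. They passed the filter only through *anti-3*, so only a fall could be called and their direction is not evidence. POPTR_0001s23050 went from 10.8, 8.64 and 13.7 FPKM to 0.954, 0.234 and 0.189, and POPTR_0004s18990 had a log2 fold change of -2.57.

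Xyloglucan:xyloglucosyl transferases cut and rejoin the xyloglucan chains of the cell wall. Of 19 tested, 10 were lowered DEGs and 1 was raised, with a median of -1.61. The 16 tested members drawn from *anti-3* held 9 of the falls and the 1 rise, and their direction is not independent evidence. POPTR_0005s00900 was at 29.4, 36.9 and 30.8 FPKM in *anti-3* and at 4.95, 1.52 and 3.02 in *anti-3*-A, below the WT mean of 10.2. POPTR_0018s10300 went from 6.90, 7.20 and 5.93 FPKM to 0.412, 0.360 and 0.174. Genes of plant-type cell wall organization moved the other way, with 3 raised DEGs among 16, 0 lowered and a median of 1.09. All 3 were among the 8 tested members drawn from *anti-3*, whose direction is largely fixed by that choice. POPTR_0010s21000 was at 36.7, 32.6 and 37.5 FPKM and then at 138, 161 and 166, and POPTR_0013s15080 went from 17.7, 19.6 and 19.1 FPKM to 87.8, 71.4 and 91.1. The 13 chitinases, enzymes that cleave chitin, had 0 DEGs by limma and by voom, 12 with an unadjusted p below 0.05, 8 with an adjusted p below 0.05 in the raised direction and 3 in the lowered, and a median of 0.59.

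Peptidase inhibitors, proteins that block proteases and are often made in defence, had 10 lowered DEGs among 15, 0 raised and a median of -1.93. Of the 15, 13 were drawn from *anti-3* and held 8 of the calls, so their direction is not independent evidence. POPTR_0010s08640 was at 21.4, 18.8 and 25.6 FPKM in *anti-3* and at 0.538, 0 and 0.512 in *anti-3*-A, from 413 and 6 reads. POPTR_0770s00220 went from 40.3, 38.1 and 50.7 FPKM to 3.49, 5.81 and 2.30, lower than its WT mean of 17.3. For the synthesis of trehalose, a sugar with signalling roles, 4 of 7 genes, chosen on the *anti-3* libraries, were lowered DEGs with a median of -1.54. POPTR_0006s19000 and POPTR_0015s14810 had log2 fold changes of -2.33 and -2.05.

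Some lowered genes lay side by side in identifier order and were on the same list. The blocks described here were picked after their values were seen, as all runs of at least 4 neighbouring lowered DEGs whose members are on 1 list. On the thioredoxin-disulfide reductase list, the 5 genes POPTR_0010s06940 to POPTR_0010s06980 were all lowered, by log2 fold changes of -1.51 to -3.22. POPTR_0010s06960 was the most abundant of them, at 131, 125 and 109 FPKM in *anti-3* and 11.1, 12.3 and 12.99 in *anti-3*-A, while POPTR_0010s06950 was at 3.75, 2.53 and 3.23 and then at 0.375, 0.492 and 0.506. The 4 glucosidases POPTR_0001s23050 to POPTR_0001s23080 fell by 1.75 to 3.06 on the log2 scale, and 3 of them rested on 4 to 11 reads in *anti-3*-A. They and POPTR_0010s06950 were below 1 FPKM in every *anti-3*-A library, so the filter fixed their direction. The 4 glutathione transferases POPTR_0011s11420 to POPTR_0011s11450 fell by 1.78 to 3.55 on the log2 scale. POPTR_0011s11430 was at 69.1, 70.0 and 68.0 FPKM and then at 4.74, 4.31 and 5.97. Neighbours of similar sequence can share reads, and the sources used here do not say how reads that map to several genes were counted.

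Of 21 genes of DNA replication, 16 were raised DEGs and 0 lowered, with a median log2 fold change of 1.97. The 10 members drawn from *anti-3* held 10 of the calls, and the 11 taken from *OX* alone held 6. POPTR_0005s24410 was at 1.69, 2.13 and 1.52 FPKM in *anti-3* and at 15.3, 14.8 and 16.8 in *anti-3*-A (log2 fold change 2.59 with an SE of 0.09, limma adjusted p = 1.0e-12). POPTR_0015s06800 went from 3.88, 4.20 and 4.70 FPKM to 27.5, 30.4 and 28.2, above its WT mean of 19.2. The summed level of the list was 64.2 to 71.9 FPKM in *anti-3*, while it was 314 to 325 in *anti-3*-A and 226 to 248 in WT, so the treated libraries stood above WT. Nucleosome genes, which include the histones that package new DNA, mostly stayed below the fold change threshold. They had 3 raised DEGs of 22 with a median of 1.15, and 22 of 22 had an adjusted p below 0.05 in the raised direction. POPTR_0005s11860 was at 50.3, 50.9 and 49.7 FPKM and then at 174, 168 and 149, and POPTR_0001s05470 had a log2 fold change of 1.56. With library medians aligned, 0 of the 22 nucleosome genes were called.

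Among genes of the response to auxin, a hormone of growth and division, 12 of 20 were raised DEGs with 0 lowered and a median of 1.95. The 12 were among the 13 members drawn from *anti-3*, and the 7 taken from *OX* alone had 0 DEGs and a median of 0.90. These 7 were by choice not in the *anti-3* part, so their smaller changes are not independent evidence either. POPTR_0013s03860 was at 29.1, 28.6 and 27.7 FPKM in *anti-3* and at 297, 269 and 268 in *anti-3*-A, a 9.78-fold difference (log2 fold change 3.24 with an SE of 0.06, limma adjusted p = 2.5e-16). Its WT mean was 279 FPKM, inside the range of the treated libraries. POPTR_0006s03540 went from 3.89, 4.32 and 3.71 FPKM to 24.3, 32.8 and 27.97. The lists for salicylic acid and gibberellin share 4 genes and had 3 of 8 and 1 of 5 raised DEGs, in members chosen on the *anti-3* libraries. POPTR_0005s14640, for salicylic acid, went from 51.4, 68.2 and 63.5 FPKM to 378, 292 and 357. POPTR_0010s12080, on both lists, had a log2 fold change of 1.61, which was 1.43 with library medians aligned and then no DEG, so that 0 of the gibberellin genes were called.

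Photosynthesis genes were measured although the cells were kept in the dark. Of 22 listed, 16 passed the filter, 6 were raised DEGs and 0 lowered, and the median was 1.38. The 11 tested members drawn from *anti-3* held 4 of the 6, in a direction largely fixed by that choice. The summed level of all 16 tested genes was 51.7 to 58.5 FPKM in *anti-3*, while it was 182 to 202 in *anti-3*-A and 182 to 201 in WT. It stood at 44.4 to 63.2 in *OX* and 226 to 249.8 in *OX*-H, where 3 of the 16 had no read in any library. POPTR_0016s11450 was at 1.59, 1.66 and 2.76 FPKM in *anti-3* and at 13.7, 15.96 and 14.7 in *anti-3*-A. POPTR_0009s01040 had 0, 2.36 and 1.46 FPKM from 14 reads and then 9.25, 7.92 and 7.38 from 84 reads, and was no DEG with a pseudocount of 0.1 (limma adjusted p = 0.0041). The list stands for green plastids, and it moved with the raised genes; its part in the other results was not tested.

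Lists of organelle functions were short, and nothing is read from their counts. Among all genes tested, 8.98% were DEGs and 78.3% had a limma adjusted p below 0.05. Of 4 NADH dehydrogenases, 1 was a raised DEG and 4 had an adjusted p below 0.05 in the raised direction. Of these 4 genes, 2 are also on the photosynthesis list, and the 4 summed to only 3.50 to 4.61 FPKM in *anti-3*. The DEG was POPTR_0011s02220, at 1.39, 0.138 and 0.796 FPKM from 19 reads and then at 5.87, 3.43 and 4.12. It fell short of the threshold after alignment of library medians (log2 fold change 1.49), without *anti-3*-A replicate 1 (1.49) or without *anti-3* replicate 2 (1.38). For iron-sulfur cluster assembly, 1 of 7 was a lowered DEG and 6 of 7 had an adjusted p below 0.05 in the lowered direction. The DEG was POPTR_0022s00770, from 138, 128 and 148 FPKM to 29.9, 22.7 and 24.7. The 4 genes of the mitochondrial intermembrane space had 0 DEGs by limma and by voom and 4 with an adjusted p below 0.05 in the lowered direction, also at an unadjusted p below 0.05. The 2 tested genes of phenylpropanoid metabolism had 0 DEGs by both tools and 1 with an unadjusted p below 0.05.

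Some genes are named in the study for functions in energy metabolism, growth and cell shape. Of these 15 genes, 14 passed the filter and 8 were raised DEGs. The study named some for being lower in *anti-3* than in WT and others for differing in *OX*. A rise of the former is largely fixed by that choice, because the same *anti-3* libraries enter both comparisons. It is not independent evidence, and the 2.91% raised among all genes is no baseline for them. POPTR_0001s05400, a UDP-glycosyltransferase, was at 8.74, 6.68 and 8.10 FPKM in *anti-3* and at 74.9, 67.9 and 68.3 in *anti-3*-A (log2 fold change 3.02 with an SE of 0.08). The other named UDP-glycosyltransferases that passed as DEGs were POPTR_0009s15190, POPTR_0006s02390 and POPTR_0003s14230, with log2 fold changes of 2.28, 1.71 and 1.52. None of them is on the list of UDP-glycosyltransferases held here. The family thus held members that rose and members that fell, while POPTR_0545s00210 was at 0.527, 0.784 and 1.26 FPKM and then at 2.42, 3.12 and 3.02, with a log2 fold change of 1.07 below the threshold. With library medians aligned, POPTR_0003s14230 (1.34) was no DEG.

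POPTR_0016s05500, an alkaline alpha-galactosidase, was at 10.2, 9.004 and 10.1 FPKM in *anti-3* and at 70.1, 112 and 95.4 in *anti-3*-A, a log2 fold change of 3.10 (SE 0.12). It was also above the WT mean of 37.9 in every treated library. POPTR_0005s15850, a phosphatidylinositol-4-phosphate 5-kinase of the lipid signalling pathway that acts on the cytoskeleton, went from 12.3, 10.4 and 12.1 FPKM to 73.9, 85.4 and 81.7. POPTR_0004s22210 encodes a cytokinin riboside 5′-monophosphate phosphoribohydrolase, which releases active cytokinin. It was at 9.50, 6.76 and 7.28 FPKM and then at 43.8, 38.4 and 44.6, a log2 fold change of 2.30 (SE 0.14). A second enzyme of this kind, POPTR_0009s01600, went from 1.46, 1.46 and 1.09 FPKM to 3.24, 4.78 and 3.50, a log2 fold change of 1.04 below the threshold. A further one, POPTR_0016s09180, did not pass the filter, at 0.436 to 0.944 FPKM in the 6 libraries.

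Inorganic pyrophosphatases split pyrophosphate into phosphate, and the 2 named genes moved in opposite directions. POPTR_0005s01840 rose from 13.6, 13.5 and 14.7 FPKM to 49.6, 39.3 and 48.6 (log2 fold change 1.64, and 1.46 with library medians aligned, then no DEG). POPTR_0006s08250 was at 80.4, 88.0 and 85.4 FPKM and then at 38.9, 29.1 and 29.8, a log2 fold change of -1.36, which reached the threshold with library medians aligned at -1.54. The phosphatase gene POPTR_0007s09470 was at 0.722, 0.550 and 1.02 FPKM from 75 reads and then at 3.06, 3.49 and 3.54 from 297 reads. Its log2 fold change of 1.31 was no DEG, and was one at 2.04 with a pseudocount of 0.1. POPTR_0013s14030, a phosphatase, had a log2 fold change of 0.85. POPTR_0014s08130, another phosphatase, stayed far below its WT mean of 48.6 FPKM, at 3.07, 2.23 and 1.76 in *anti-3* and 1.81, 2.50 and 2.21 in *anti-3*-A (log2 fold change -0.07, limma adjusted p = 0.65). The libraries of the 2 groups overlapped for this gene.

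**Figure D4:**
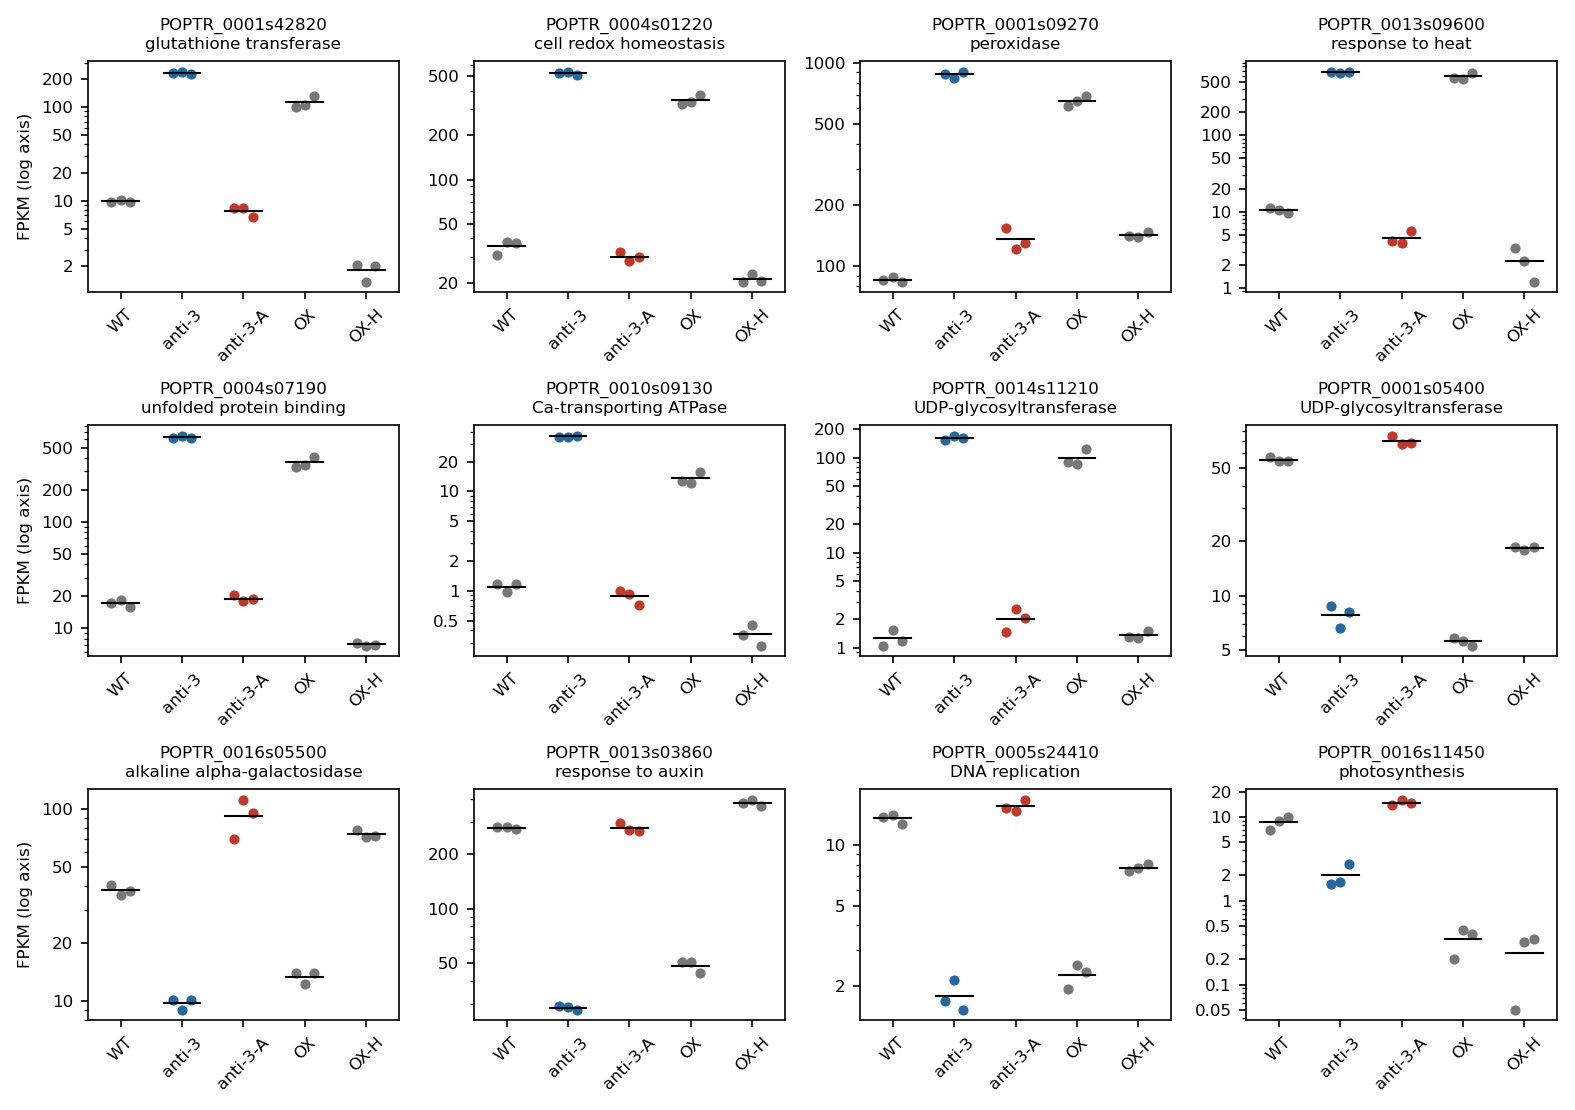
FPKM (log axis) of 12 genes named in the text, in each library of the 5 groups, with the gene's list or function above each panel. Points are libraries and lines are means of 3, with *anti-3* in blue and *anti-3*-A in red. In each panel the *anti-3* and *anti-3*-A libraries do not overlap, for instance 681, 651 and 673 against 4.11, 3.91 and 5.52 for POPTR_0013s09600.

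The response was set beside the other treatment of the series, H2O2 given to *OX*, which shares no library with it. Line, agent and dose all differ. The study also reports that the *OX* lines required an added cytokinin to grow, so the medium may differ too. The part of the medium was not tested, and a difference cannot be assigned to any of these. Of the 675 genes raised after AsA, 275 were also raised DEGs of *OX*-H against *OX* (40.7%, and 40.2% of the 684 genes raised there, a background of 2.95%). Of the 1405 lowered genes, 890 were lowered there too (63.3%, and 70.4% of the 1265 lowered there, a background of 5.46%). Across all 23167 genes the 2 log2 fold changes correlated at r = 0.81, which is given as a description, since genes are not independent replicates. The median log2 fold change in *OX*-H against *OX* was 1.34 for the raised genes, -1.85 for the lowered genes and 0.13 for all genes. POPTR_0001s35990 of the heat list had log2 fold changes of -5.27 with AsA and -5.32 with H2O2, and POPTR_0013s03860 of the auxin list had 3.24 and 2.95.

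Opposite calls were rare: 0 of the raised genes were lowered DEGs with H2O2, and 4 of the lowered genes were raised there. These 4, singled out after their values were seen and with no function named in the sources, were POPTR_0005s01860, POPTR_0005s26220, POPTR_0011s12730 and POPTR_0013s14410. POPTR_0005s01860 went from 35.3, 42.7 and 39.0 FPKM to 14.0, 8.41 and 9.91 with AsA, and its means were 33.4 in *OX* and 129.5 in *OX*-H. POPTR_0013s14410 was the least firm of them, at 3.37, 5.65 and 9.13 FPKM and then at 1.76, 0 and 0.628, and 1 or other library left out moved its adjusted p above 0.001 in 4 of 6 cases. POPTR_0005s26220 was no DEG without *anti-3*-A replicate 1 or *anti-3* replicate 3 (with log2 fold changes close to the threshold).

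The difference between the 2 responses was tested in the same fit as (*anti-3*-A minus *anti-3*) minus (*OX*-H minus *OX*), with the same thresholds. It passed for 569 genes (2.46%), with the AsA response higher in 169 (0.729%) and lower in 400 (1.73%). Of the 569, 251 were lowered and 59 raised by sign in both comparisons, differing in size, and 218 were below 0 with AsA and above 0 with H2O2. Another 40 were above 0 with AsA and below 0 with H2O2, and 1 had no read in *OX* and *OX*-H.

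The lists differed in how far the responses went apart. Glutathione transferases fell in both, with medians of -1.94 with AsA and -2.76 with H2O2, and in 6 of 23 the fall with AsA was the smaller one past the thresholds. POPTR_0011s11450 was at 551, 518 and 573 FPKM in *anti-3* and at 172, 157 and 149.6 in *anti-3*-A, while the means of the *OX* libraries without and with H2O2 were 391.7 and 14.3, so that the log2 fold changes differed by 2.90 (SE 0.11). POPTR_0006s02510, on the same list, was at 438, 413 and 444 FPKM and then at 109.6, 109.5 and 116, against means of 84.2 and 2.23 with H2O2. Both stayed above their WT means of 77.8 and 65.0 after AsA. Xyloglucan:xyloglucosyl transferases had medians of -1.61 with AsA and -0.12 with H2O2, and 8 of 19 had the lower response with AsA. For POPTR_0005s00900 the log2 fold changes were -3.08 and -0.84. In the sulfate, malate and phosphate transport lists, 3 genes each had a lower response with AsA, among them POPTR_0007s03520 with -2.05 and -0.26.

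Other listed genes with a tested difference were spread over several lists. The UDP-glycosyltransferase POPTR_0002s17000 fell with AsA from 3.18, 3.23 and 3.47 FPKM to 0.0961, 0.315 and 0.274 and had means of 6.01 in *OX* and 11.7 in *OX*-H, a difference of -2.67 (SE 0.18). For the peptidase inhibitor POPTR_0010s08640 the log2 fold changes were -4.10 with AsA and -1.48 with H2O2, a difference of -2.62 (SE 0.48). In the photosynthesis list 4 of 16 had a higher response with AsA, and POPTR_0016s11450 was at means of 0.352 and 0.241 FPKM in *OX* and *OX*-H (difference 2.54, SE 0.22). For DNA replication the medians were 1.97 with AsA and 0.99 with H2O2, with 16 and 1 raised DEGs, yet the difference passed the thresholds for 1 of 21 genes. Of the study's named genes, POPTR_0004s22210 differed, with a log2 fold change of 2.30 with AsA and 0.33 with H2O2. The lists for unfolded protein binding, heat and auxin had 0 genes past the thresholds of the difference.

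**Figure D5:**
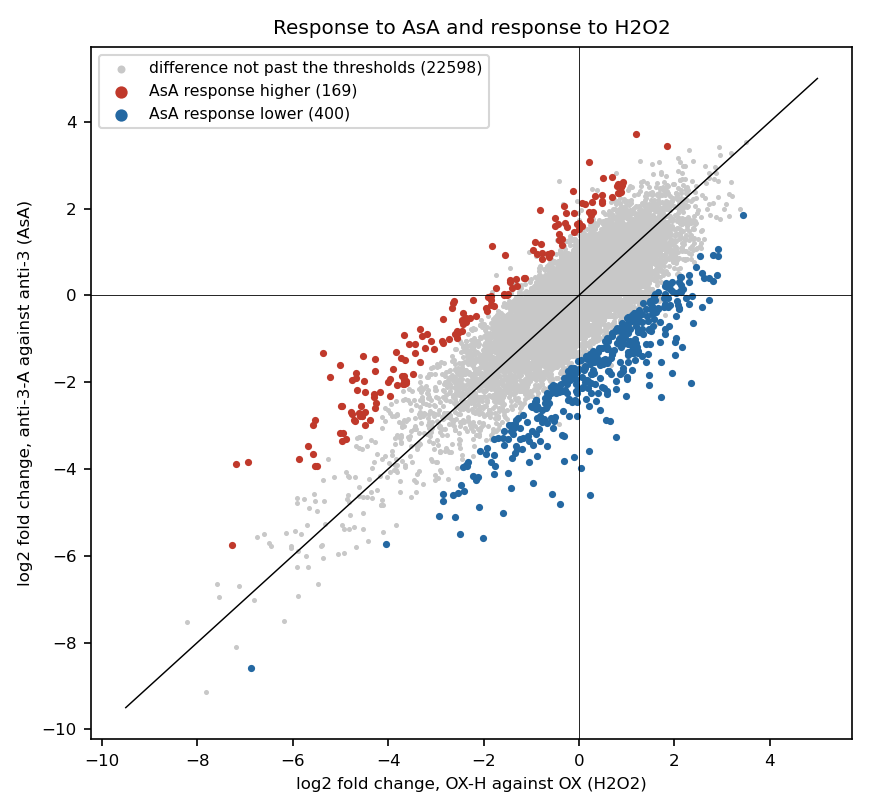
Log2 fold change of *OX*-H against *OX* (x axis) and of *anti-3*-A against *anti-3* (y axis) on log2(FPKM + 1) for 23167 genes, with the line of equal response. Coloured points are the 569 genes whose 2 responses differ past the thresholds, 169 with the higher (red) and 400 with the lower (blue) response to AsA, and most of the other genes lie along the line.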

How the data were processed

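RNA-seq values of 15 libraries were used, with groups and replicates taken from the sample labels. The authors deposited FPKM values per gene and library. The methods name SOAPaligner/SOAP2 and the submitters' processing notes name Bowtie2 2.2.3, TopHat2 2.0.12 and HTSeq 0.6.1. Likewise the methods name TRIzol and the labels a column kit. For genome release, annotation and strand the sources used here give nothing. The authors' deposited DEG tables hold their own log2 ratios and p-values and were not used.

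Whole reads were worked back from the FPKM steps with Python 3.11.15. Tested on reads simulated for 34139 genes, this returned all reads of 98.58% of them. The test was limma-trend (limma 3.58.1 in R 4.3.3) on log2(FPKM + 1), with all 15 libraries in 1 fit with group means, no covariate, and Benjamini-Hochberg adjustment. On simulated libraries of *anti-3*-A against *anti-3* with 23167 genes, 91 of 100 genes changed by 2 on the log2 scale, 100 of 100 changed by 3 and 0 of 22967 unchanged genes were called. Replicate libraries differed by more than sampling noise (chi-square per degree of freedom 2.28 to 6.77), so none was counted as a copy.

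The members, lists and rules were chosen with earlier results of these data known. Named are the study's 15 genes, up to 2 DEGs per list with the largest change, the 2 largest rises and falls, and the 2 listed genes at each end of the difference from the H2O2 response. Alternatives changed the pseudocount (0.1, 0.5), the filter (none, or FPKM of 5), the scaling (aligned medians, quantile normalization), the fit (compared groups only, no trend, replicate block) and the thresholds (adjusted p of 0.05, fold change of 1.5), or left out each replicate. Voom on whole reads was chosen after seeing the data. No gene symbols or sequences were matched to the identifiers, because the reference used here is of *P. tomentosa* with other locus names.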

Additional observations from a re-analysis of the deposited data

Results flagged for a closer look

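The response to AsA in *anti-3* and the response to H2O2 in *OX* differed past the thresholds for 569 genes by the tested difference of the fold changes. Among listed genes, those at the ends were the glutathione transferases POPTR_0011s11450 (difference on the log2 scale 2.90) and POPTR_0006s02510 (2.81), the peptidase inhibitor POPTR_0010s08640 (-2.62) and the UDP-glycosyltransferase POPTR_0002s17000 (-2.67). Line, agent and dose, and possibly the cytokinin in the medium, differ together, so the part of each cannot be told apart.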

How the results depend on the processing

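The number of DEGs depended most on the fold change threshold: at a fold change of 1.5 there were 10262 DEGs, 6700 raised and 3562 lowered, and 3659 for the difference from the H2O2 response. With a pseudocount of 0.1 raised genes numbered 1325, with library medians aligned 445, and by voom on whole reads 1477 (3291 DEGs in all). No other alternative moved these counts by over 1.5 times. With each replicate left out in turn, DEGs ranged from 2042 to 2145, raised from 669 to 714, lowered from 1367 to 1431, and the difference from 546 to 571. The replicate numbers shared by the groups do not pair the libraries (same-number correlations of -0.005 to 0.015), and a fit with the replicate block called 2078 genes (673 raised, 1405 lowered) and 563 for the difference. Of the named genes, POPTR_0014s08130 changed sign and ranged from -0.20 to 0.08 with a replicate left out, above 0 without *anti-3*-A replicate 1 (0.02) or *anti-3* replicate 1 (0.08). Low counts limit genes such as POPTR_0013s14410, and mock-treated cells, which would separate AsA from handling, were not analysed here.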
